A study of Homo sapiens with 4 samples.

Results

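The 9 genes MDM2, MDM4, CDKN1A, DDB2, GDF15, BTG2, ZMAT3, SESN1 and RRM2B, which hold regulators and targets of the transcription factor p53, were followed in RNA-seq of colon cells with and without sturgeon chondroitin sulfate (SCS). They were found by name among the 18800 loci with at least 1 fragment, and every one of the 9 was present. The set was chosen by measured values of these same libraries, so its changes are given as a description with no test. The question was whether CDKN1A and GDF15 were higher with or without the other p53 targets in each line. The changes of CDKN1A, DDB2 and GDF15 in HT-29 had also led the study to list them, so they are no independent evidence of a direction. The study lists smaller changes of these genes than those given below, with FPKM values that differ from the deposited ones. The reason for this gap was not tested.

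SCS is a sulfated polysaccharide from sturgeon cartilage or bone. HT-29 cells, from a human colorectal adenocarcinoma, and NCM460 cells, used as normal colon epithelial cells, were each sequenced without SCS and after 24 h with SCS at 100 μg/mL. Each of the 4 conditions had 1 library, so no difference has a replicate check, and each is a difference between a pair of libraries. The study's methods speak of biological replicates for all its experiments, and whether a library pools several is not given in the sources used here. All intervals below are at 95% and cover counting error only. Either line is a single cell line, and the study's culture methods give NCM460 more serum than HT-29. Line and serum thus cannot be told apart in any comparison between the lines. Fewer cells expressing a gene cannot be told apart from less RNA per cell in bulk RNA.

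p53 is a transcription factor that damage and other stresses stabilise, and it switches on genes that stop the cell cycle, repair DNA or kill the cell. MDM2 and MDM4 bind p53 and keep it in check, and MDM2 is itself a p53 target, which closes a feedback loop. Several of these targets, CDKN1A and GDF15 among them, also have inputs that do not need p53, such as the ATF4 branch of the stress response, and HT-29 cells are known to carry a mutated p53.

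p53 binds DNA at a response element made of a pair of 10-base copies of a palindromic motif. RefSeq promoter windows on GRCh38.p14, which run from 250 bases before to 50 bases after a gene start, were searched for the best match to this element with at most 1 base between the copies. Windows were at hand for 8 of the 9 members. The motif reads the same on both strands, so 1 strand was searched. The 4 members whose best match had at most 3 mismatches are shown because their windows hold the letters closest to the element, with both copies in capitals, read 5′ to 3′ on the strand of the gene:
DDB2: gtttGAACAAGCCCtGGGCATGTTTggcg
MDM2: agctGGTCAAGTTCAGACACGTTCcgaa
GDF15: gcacAGCCATGCCCGGGCAAGAACtc
SESN1: gtctGGACAAGTCTCCACAAGTCAgaaa

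The DDB2 stretch, at chr11:47214975-47215003 on the plus strand, matched the element with 0 mismatches and 1 base between the copies. Its site began at base 6 after a RefSeq start of the gene, and a match this good was found in 0.0199% of 35116 promoter windows. The MDM2 stretch, at chr12:68808919-68808946 on the plus strand, had 2 mismatches, which 1.34% of windows equalled or bettered, and began 101 bases before the start of 1 of 4 MDM2 windows. The stretches of GDF15 at chr19:18386182-18386207, plus strand, and of SESN1 at chr6:109009014-109009041, minus strand, had 3 mismatches, a level reached by 9.75% of windows. In the windows of BTG2 and ZMAT3 the best match had 4 mismatches, which 41.3% of windows equalled or bettered. In those of CDKN1A and MDM4 it had 5, which 85.6% equalled or bettered. The p53 sites known for CDKN1A lie further upstream than this window reaches. The ATF4 composite motif TGATGCAA, searched on both strands, was in none of the windows of the 8 members and in 0.866% of all windows. These matches describe letters, and say nothing of binding in these cells.

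The libraries held 1174353 to 1682199 fragments, of which 35.3% and 13.5% came from the mitochondrial genome in HT-29 without and with SCS and 61.8% and 45.6% in NCM460. This share was thus lower with SCS in both lines, and its part in the differences below was not tested. In NCM460 the log2 fold change of a locus went down with the GC content of its transcripts (Spearman's rho = -0.64 across 12682 loci, which are not independent and share both libraries), while in HT-29 rho was -0.12 across 12189 loci. Each member's NCM460 value is therefore also given after a lowess trend on GC content was subtracted. Of 10 markers of colon epithelium, 8 were above 3 fragments in both HT-29 libraries and 6 in both NCM460 libraries, where CDH17, KRT20, LGALS4 and VIL1 were at 0. Their summed level was lower with SCS in both lines, at 6433 and 3480 CPM in HT-29 and 4279 and 2614 CPM in NCM460. The markers did not all go that way, and of 8 compared in HT-29, 4 were higher and 4 lower. Of 6 compared in NCM460, 1 (EPCAM) was higher and 5 lower, or 2 and 4 with the GC trend subtracted. The part of these markers in the members' changes was not tested. CDX2, a transcription factor of intestinal epithelium, was at 0 fragments in both HT-29 libraries and at 14 and 12 in the NCM460 control and with SCS. Mesenchymal markers summed to 4.82 and 4.92 CPM in HT-29 and to 111 and 126 CPM in NCM460. Of 6 markers of immune and blood cells, LYZ alone was above 3 fragments in HT-29 and all were at 0 in NCM460.

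The regulators came first. MDM2 (ENSG00000135679, chr12:68808172-68850686), the ubiquitin ligase that marks p53 for degradation, had 68 fragments in the HT-29 control and 115 with SCS, and 13 and 48 in the NCM460 control and with SCS. After scaling by TMM factors, in CPM (counts scaled to a common library size), these were 32.8 and 47.1 in HT-29 and 16.4 and 43.6 in NCM460. Its row shares all its values with the overlapping gene RP11-611O2.3, so the fragments cannot be assigned to either. Its log2 fold change with SCS was 0.51 (0.08 to 0.98) in HT-29 and 1.34 (0.50 to 2.42) in NCM460. A locus is called here when its fold change is over 1.5 and its counting interval excludes 0. MDM2 was called higher in NCM460 only, and there its value was 0.27 with the GC trend subtracted, which is not called.

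MDM4 (ENSG00000198625, chr1:204516379-204558120), a relative of MDM2 that blocks the activating domain of p53, had 78 and 215 fragments in the HT-29 control and with SCS, and 26 and 100 in NCM460. These were 37.6 and 88.1 CPM in HT-29, and 32.9 and 90.9 CPM in NCM460. Both libraries with SCS were above both controls. The log2 fold change was 1.20 (0.85 to 1.62) in HT-29 and 1.43 (0.83 to 2.15) in NCM460, called in both lines. With the GC trend subtracted it stayed called in HT-29, at 1.02, and was 0.46 in NCM460, where it was not called.

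CDKN1A (ENSG00000124762, chr6:36676460-36687339) encodes p21, the inhibitor of cyclin-dependent kinases through which p53 halts the cycle. In HT-29 it had 25 fragments without and 279 with SCS, and in NCM460 187 without and 246 with it. In CPM the HT-29 control, at 12.0, stood far below HT-29 with SCS at 114 and both NCM460 libraries, at 236 and 224. CDKN1A rose in HT-29 by 3.12 on the log2 scale (2.65 to 3.90), a 9.49-fold ratio of CPM. In NCM460 the log2 fold change was -0.08 (-0.36 to 0.20), and 0.55 (0.27 to 0.83) with the GC trend subtracted. The latter interval excludes 0, but the value is under the fold that is called, so CDKN1A was called in neither case. Only with libraries scaled by total counts was it called higher there, at 0.60.

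BTG2 (ENSG00000159388, chr1:203305491-203309602), an antiproliferative p53 target that acts with the mRNA deadenylase complex, had 23 and 6 fragments in the HT-29 control and with SCS, and 30 and 29 in NCM460. These were 11.1 and 2.46 CPM in HT-29 and 37.9 and 26.4 CPM in NCM460. HT-29 with SCS was the lowest of the 4 libraries. BTG2 fell by 1.73 on the log2 scale in HT-29 (interval -3.76 to -0.84), and its value in NCM460 was -0.50 (-1.31 to 0.26), and -0.37 with the GC trend subtracted, called in neither case.

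GDF15 (ENSG00000130513, chr19:18374731-18389176), a secreted factor of the TGF-beta family that many stresses induce, had the most fragments of the members in every library. They numbered 144 without and 1355 with SCS in HT-29, and 332 without and 372 with it in NCM460. In CPM the HT-29 control, at 69.4, was the lowest library, HT-29 with SCS, at 555, the highest, and NCM460 lay between, at 420 and 338. GDF15 rose in HT-29 by 2.98 on the log2 scale (2.75 to 3.26), a ratio with a counting interval of 6.73 to 9.57. In NCM460 it was -0.31 (-0.53 to -0.09), below the fold that is called. With the GC trend subtracted it was 0.36 (0.14 to 0.58), also below that fold. Both intervals exclude 0, on opposite sides.

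**Figure D1:**
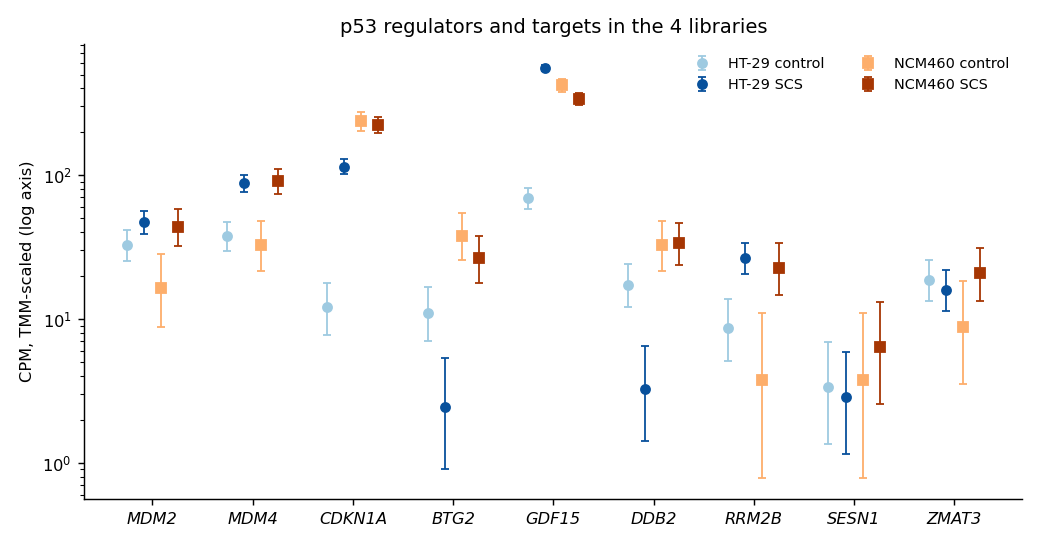
Level of each of the 9 members in each of the 4 libraries in CPM scaled by TMM factors, on a log axis, with 1 point per library and bars for exact 95% Poisson intervals of the fragments. CDKN1A and GDF15 of the HT-29 control, at 12.0 and 69.4 CPM, lie below their other 3 libraries, while BTG2 and DDB2 are lowest in HT-29 with SCS.

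DDB2 (ENSG00000134574, chr11:47214465-47239240), whose window holds the complete response element shown above, encodes the subunit of the UV-damaged-DNA-binding complex that finds lesions for repair. It had 36 and 8 fragments in the HT-29 control and with SCS, and 26 and 37 in NCM460. These were 17.3 and 3.28 CPM in HT-29 and 32.9 and 33.6 CPM in NCM460, so HT-29 with SCS was again the lowest library. DDB2 fell by 2.04 on the log2 scale in HT-29 (interval -3.72 to -1.27), while in NCM460 it was 0.03 (-0.73 to 0.82), and 0.37 with the GC trend subtracted, not called.

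RRM2B (ENSG00000048392, chr8:102204502-102239118) encodes the p53-induced small subunit of ribonucleotide reductase, the enzyme that makes deoxynucleotides for repair. It had 18 and 65 fragments in the HT-29 control and with SCS, and 3 and 25 in NCM460, or 8.67 and 26.6 CPM in HT-29 and 3.79 and 22.7 CPM in NCM460. Both controls were below both libraries with SCS. RRM2B rose in HT-29 by 1.49 on the log2 scale (0.85 to 2.46), and by 1.24 with the GC trend subtracted. In NCM460, where the control held 3 fragments, the ratio of CPM was 5.99 with a counting interval of 1.83 to 31.0. Its log2 fold change there was 2.25 (0.87 to 4.95), called higher, and 1.00 with the GC trend subtracted, not called.

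SESN1 (ENSG00000080546, chr6:108986437-109094819), a sestrin that restrains the growth kinase mTORC1, was scarce. It had 7 fragments in each HT-29 library, and 3 and 7 in the NCM460 control and with SCS, or 3.37, 2.87, 3.79 and 6.36 CPM in that order. Its log2 fold change was -0.17 (-1.97 to 1.51) in HT-29 and 0.59 (-1.38 to 3.33) in NCM460, where it turned to -0.51 (-2.48 to 2.23) with the GC trend subtracted. At this depth no change of SESN1 was detectable in either line.

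ZMAT3 (ENSG00000172667, chr3:179017223-179072279), an RNA-binding zinc finger protein and splicing regulator, had 39 fragments in each HT-29 library, and 7 and 23 in NCM460. In CPM these were 18.8 and 16.0 in HT-29 and 8.85 and 20.9 in NCM460. The log2 fold change was -0.22 (-0.91 to 0.44) in HT-29 and 1.13 (-0.03 to 2.70) in NCM460, called in neither line, and the latter was 0.26 with the GC trend subtracted.

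Among the 9 members, 4 were thus called higher in HT-29 (CDKN1A, GDF15, RRM2B and MDM4) and 2 lower (DDB2 and BTG2), with MDM2, SESN1 and ZMAT3 not called. Over all 12302 loci compared in HT-29, 16.7% were called higher and 14.8% lower. The same 4 and 2 members were called with the GC trend subtracted, when 14.4% and 15.9% of all loci were called higher and lower. Since the members were selected on these values, nothing is read from their share.

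In NCM460, 3 members were called higher (RRM2B, MDM4 and MDM2) and 0 lower, against 15.4% of 12794 loci called higher and 13.8% lower. With the GC trend subtracted, 0 members were called in either direction, against 5.28% and 5.95% of loci. The 3 called members are among the 5 with the lowest GC content of their transcripts, RRM2B at 39.5%, SESN1 at 41.2%, MDM2 at 41.4%, MDM4 at 42.3% and ZMAT3 at 43.2%. All 5 had a log2 fold change above 0.5 in NCM460, but with the trend subtracted they ran from -0.51 for SESN1 to 1.00 for RRM2B. The other 4, at 51.1% to 60.2% GC, had values from -0.50 to 0.03, and from -0.37 to 0.55 with the trend subtracted, and the part of GC content in these differences was not tested.

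CDKN1A and GDF15 were thus higher in HT-29 together with RRM2B and MDM4, while DDB2 and BTG2 were lower and MDM2, SESN1 and ZMAT3 were not called. In NCM460 neither CDKN1A nor GDF15 was called, while RRM2B and MDM4 were called higher there too, as was MDM2. None of these was called in NCM460 with the GC trend subtracted. Only from fragments without the GC trend subtracted were RRM2B and MDM4 thus called higher both with and without CDKN1A and GDF15. By the deposited FPKM RRM2B was called in neither line. Between the libraries with SCS, CDKN1A stood 1.96-fold lower in HT-29 than in NCM460 and GDF15 1.64-fold higher, both called. DDB2, at -2.95 (-4.67 to -2.23) on the log2 scale, and BTG2, at -2.90 (-4.98 to -2.13), were called lower in HT-29 there, and the other 5 members were not called. Over 13195 loci 24.2% were called higher in HT-29 with SCS and 22.5% lower.

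**Figure D2:**
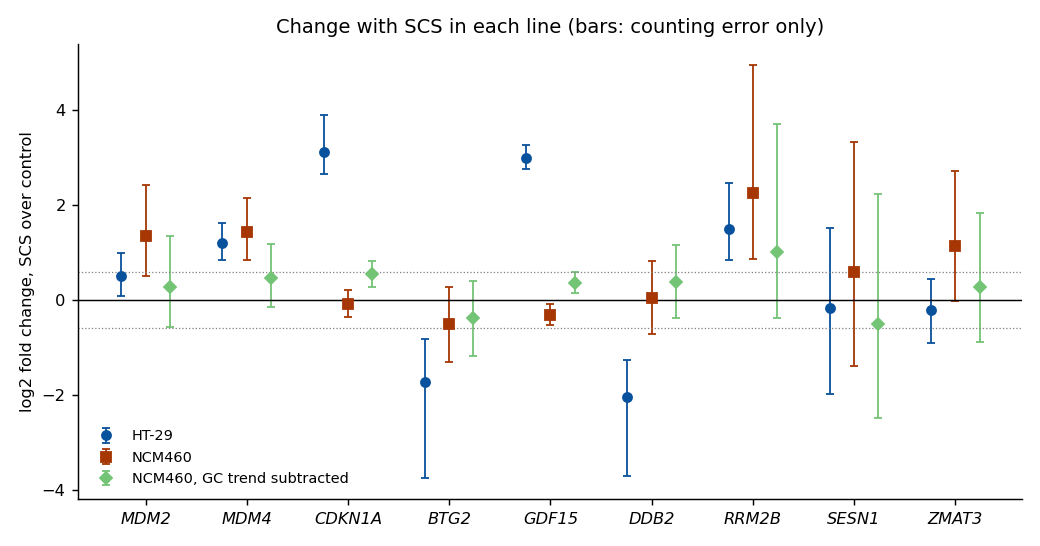
log2 fold change of each member with SCS over the control in HT-29 (circles), in NCM460 (squares) and in NCM460 with the GC trend subtracted (diamonds), with bars for the exact 95% counting intervals and dotted lines at a fold of 1.5. CDKN1A (3.12) and GDF15 (2.98) stand highest in HT-29. Their NCM460 values are -0.08 and -0.31, and 0.55 and 0.36 with the trend subtracted. The NCM460 values of MDM2, MDM4, RRM2B and ZMAT3 come closer to 0 once the trend is subtracted.

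The difference between the lines, the log2 fold change in HT-29 minus that in NCM460, was largest for GDF15 at 3.29 (2.98 to 3.65) and CDKN1A at 3.20 (2.66 to 4.04). With the GC trend subtracted in both lines these were 2.65 and 2.62. Over 10972 loci compared in both lines the median difference was -0.13, with quartiles of -1.03 and 0.68. DDB2 and BTG2 differed the other way, by -2.07 (-3.95 to -1.01) and -1.23 (-3.41 to -0.04). From FPKM ratios the DDB2 difference was smaller, at -0.90 and -0.55 with pseudocounts of 0.1 and 1. For MDM2 (-0.84), MDM4 (-0.23), ZMAT3 (-1.35), SESN1 (-0.76) and RRM2B (-0.76) the counting interval of the difference included 0. The MDM2 difference was 0.03 with the GC trend subtracted, and 1.85 and 1.76 from FPKM ratios.

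The controls alone already differed. CDKN1A was 19.6-fold lower in the HT-29 control than in the NCM460 control, a log2 difference of -4.16 (-4.96 to -3.69). GDF15 was 6.05-fold lower, at -2.58 (-2.89 to -2.31). BTG2, at -1.67 (-2.62 to -0.94), and DDB2, at -0.88 (-1.69 to -0.14), were also called lower in HT-29, and MDM2, at 0.94 (0.13 to 1.98), was called higher. The deposited FPKM of MDM2 went the other way, at 9.29 in the HT-29 control and 39.0 in the NCM460 control. Its baseline direction thus depends on the measure, and no GC trend was subtracted between the controls. MDM4, ZMAT3, SESN1 and RRM2B were not called. Between the controls 25.4% of 12825 loci were called higher in HT-29 and 23.1% lower. CDKN1A and GDF15 thus started lower in HT-29, while the value with SCS in HT-29 and both values in NCM460 lay from 114 to 236 CPM for CDKN1A and from 338 to 555 CPM for GDF15.

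By level per transcript length, in FPKM, GDF15 was first of the 9 in every library, at 87.7 and 599 in HT-29 without and with SCS and at 493 and 356 in NCM460. CDKN1A was the fifth in the HT-29 control, at 5.49 FPKM beside MDM4 at 5.52, and the second in the other 3 libraries, at 49.1, 119 and 105 FPKM. SESN1 was last in each, from 0.654 to 2.80 FPKM. FPKM levels carry no interval of their own here, so neighbours such as MDM4 and CDKN1A in the HT-29 control, or BTG2 (3.73) and RRM2B (3.69) there, cannot be ordered.

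Fragments and FPKM gave the same direction for most members but not for all. A ratio of FPKM is called by the same rule as fragments, with the counting interval of the fragments shifted onto it, since FPKM has none. In HT-29 the ratio of FPKM with SCS to that without was 8.95 for CDKN1A, 6.84 for GDF15, 2.19 for MDM4, 0.3 for BTG2 and 0.245 for DDB2, in the same direction as the fragments. RRM2B, at 3.69 and 5.35 FPKM in HT-29, had a log2 ratio of 0.52, under the fold that is called. In NCM460 the fragments of MDM2 were higher with SCS, while its FPKM went from 39.0 to 19.1, a log2 ratio of -1.02. DDB2 in NCM460 went from 30.0 to 14.2 FPKM (log2 ratio -1.07), although its fragments gave 0.03. RRM2B, at 7.12 and 7.89 FPKM in NCM460, had a log2 ratio of 0.15. MDM2 in HT-29, at 9.29 and 16.6 FPKM, had a log2 ratio of 0.83, past the fold that its fragments did not reach, and ZMAT3 in NCM460, at 1.86 and 4.51 FPKM, was called higher by FPKM with a pseudocount of 0.1. The calls of MDM2 and RRM2B in both lines and of DDB2 and ZMAT3 in NCM460 therefore depend on which deposited measure is used.

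**Figure D3:**
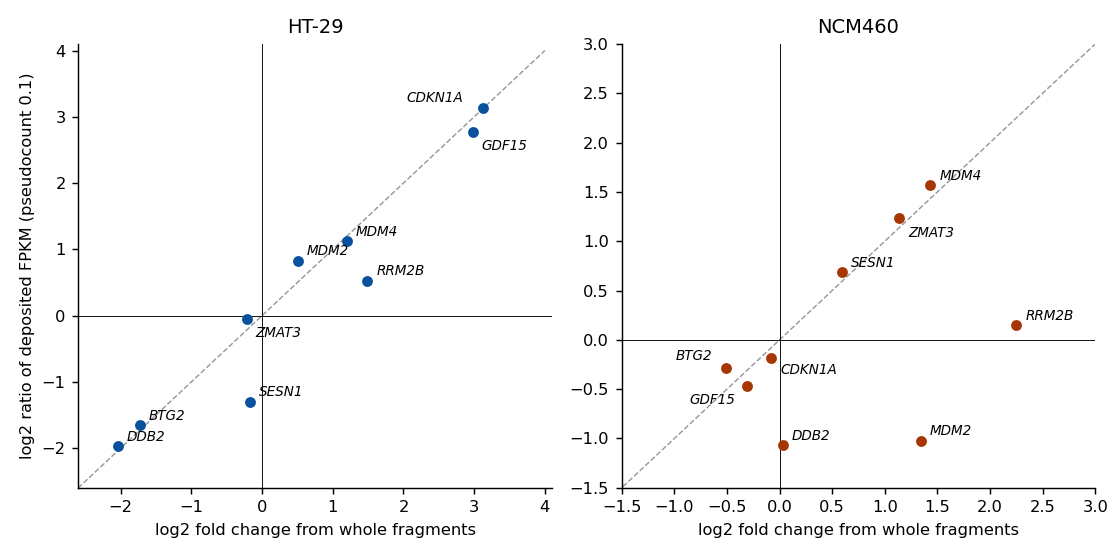
log2 ratio of the deposited FPKM with SCS over the control (pseudocount 0.1, vertical) against the log2 fold change from whole fragments (horizontal) for the 9 members in each line, with a dashed line where both are equal. CDKN1A, GDF15, MDM4, BTG2 and DDB2 lie near the line in HT-29, while MDM2, DDB2 and RRM2B lie well below it in NCM460.

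The wider set of p53 targets was read from a list of 63 other genes, of which 57 were compared in HT-29. Of these 12 (21.1%) were called higher and 6 (10.5%) lower, beside the 16.7% and 14.8% of all loci given above, and their median log2 fold change was 0.22, against 0.07 for all loci. TP53INP1, a stress-induced partner in autophagy and cell death, was the highest at a mean of at least 5 CPM, at 2.82 on the log2 scale from 2 fragments in the HT-29 control and 35 with SCS, with a counting interval that began at 1.93. PLK2, a kinase of centriole duplication, was the lowest, with 260 and 88 fragments and -1.76 (-2.16 to -1.44). The following genes were chosen after their values were seen. PMAIP1 (1.91), TNFRSF10B (1.84) and BBC3 (1.56), which encode NOXA, the death receptor DR5 and PUMA, were called higher in HT-29. Other genes of cell death on the list were not called there, APAF1 at 0.61, TNFRSF10A at 0.25, TNFRSF10D at -0.05, BAX at -0.23, PERP at -0.28 and FAS at -0.94. GADD45A (1.41), a damage-response gene, was called higher, and CCNG1 (0.55), a common p53 target, was not called.

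In NCM460, 59 of the 63 were compared, and 10 (16.9%) were called higher and 8 (13.6%) lower, near the 15.4% and 13.8% of all loci, with a median of 0.17 against 0.03 for all loci. With the GC trend subtracted 5 (8.47%) were called higher and 2 (3.39%) lower, beside 5.28% and 5.95% of all loci. ASCC3, a helicase subunit, was the highest, at 2.12 (1.17 to 3.54) from 8 and 53 fragments. With the trend subtracted ASCC3 was at 0.88 (-0.07 to 2.30), not called. FUCA1, a lysosomal fucosidase, was the lowest at a mean of at least 5 CPM, with 11 and 5 fragments and -1.39 (-3.49 to 0.03), not called. With the trend subtracted FUCA1 was called lower, at -1.57 (-3.67 to -0.15). GADD45A was called higher in NCM460 too, at 1.44 (0.63 to 2.46), and stayed called with the trend subtracted. PMAIP1, at 3 and 15 fragments in NCM460, gave 1.56 (0.02 to 4.28) on the log2 scale, and once the trend was subtracted 0.74, which is not called.

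The genes that act beside the members differed among themselves. Of the CDK inhibitors, CDKN1A (3.12) and CDKN2B (1.57, from 31 to 114 fragments), the p15 gene, rose in HT-29. CDKN1B (0.31) and CDKN2A (0.27) were not called, nor were CDKN2D (0.25) and CDKN1C, whose 1 and 8 fragments gave 1.39 (-0.13 to 8.24). CDKN3, at 13 and 5 fragments, and CDKN2C, at 13 and 2, were called lower (-1.19 and -1.86, the latter with an interval of -6.12 to -0.79). In NCM460, CDKN1C rose from 6 to 25 fragments (1.44, and 2.14 with the trend subtracted) and CDKN2D fell from 13 to 6 (-1.40, not called with the trend subtracted). The other 6 were not called, CDKN1B at 0.77, CDKN3 at 0.43, CDKN2B at -0.01, CDKN2A at -0.08, CDKN1A at -0.08 and CDKN2C at -1.30.

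In the BTG and TOB family, BTG1 moved opposite to BTG2 in HT-29. BTG1 had 40 and 315 fragments and rose by 2.67 on the log2 scale (2.27 to 3.26), while TOB1, at 165 and 83 fragments, fell by 1.20 on the log2 scale. BTG3 (0.67) and TOB2 (-0.26) were not called. In NCM460 none of the family was called, with BTG3 at 1.24, BTG1 at 0.26, TOB1 at 0.12, TOB2 at -0.25 and BTG2 at -0.50, but with the trend subtracted BTG1 was called lower, at -0.92.

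Among the sestrins SESN2, which p53 and ATF4 both induce, rose in HT-29 from 28 to 188 fragments, by 2.41 on the log2 scale (1.94 to 3.14), and was -0.80 (-1.85 to 0.13) in NCM460. SESN3 had at most 3 fragments in a library, with ratios whose counting intervals (log2 scale) were -2.29 to 7.07 in HT-29 and without an upper end in NCM460. In ribonucleotide reductase RRM2, the small subunit that S phase cells use, fell in HT-29 from 365 to 27 fragments, by 3.85 on the log2 scale (interval -4.61 to -3.43). RRM1, the large subunit, fell from 163 to 61 fragments, by 1.60 on the log2 scale, so RRM2B was the only one of the 3 subunit genes that rose there. In NCM460 RRM1 was called higher, at 1.66 and at 0.85 with the trend subtracted, and RRM2 was not called, at 0.44.

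The partners that p21 binds, cyclins, their kinases and PCNA, were lower in HT-29. Of 11 compared, 10 were called lower and 0 higher, beside 14.8% and 16.7% of all loci, with a median of -1.43 and values from -2.65 for PCNA, the sliding clamp of DNA replication, to -0.64 for CDK4. With the GC trend subtracted 9 were called lower, beside 15.9% of all loci. In NCM460, 3 of 10 were called higher and 0 lower, beside 15.4% and 13.8% of all loci, with a median of 0.28. CDK1 was the highest there, at 1.86 from 9 and 49 fragments, and CCNE1 the lowest, at -0.90, not called. With the trend subtracted 1 of the 10 was called higher, beside 5.28% of all loci.

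Genes of the ATF4 stress response were higher in HT-29. Of 18 compared, 15 were called higher and 1 lower, beside 16.7% and 14.8% of all loci, with a median log2 fold change of 1.75 against 0.07 for all loci. The list shares ATF3 and SESN2 with the other p53 targets. NUPR1, a stress-induced chromatin protein, had 0 fragments in the HT-29 control and 49 with SCS. PHGDH, the first enzyme of serine synthesis, fell by 0.79 on the log2 scale. In NCM460, 0 of 17 were called higher and 6 lower, beside 15.4% and 13.8% of all loci, with a median of -0.64, and 5 were called lower with the trend subtracted, beside 5.95%. PPP1R15A, which restores translation after stress, was the lowest there, at -1.67, and SLC7A11, the cystine transporter, the highest, at 1.32 (-0.11 to 3.56), not called.

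**Figure D4:**
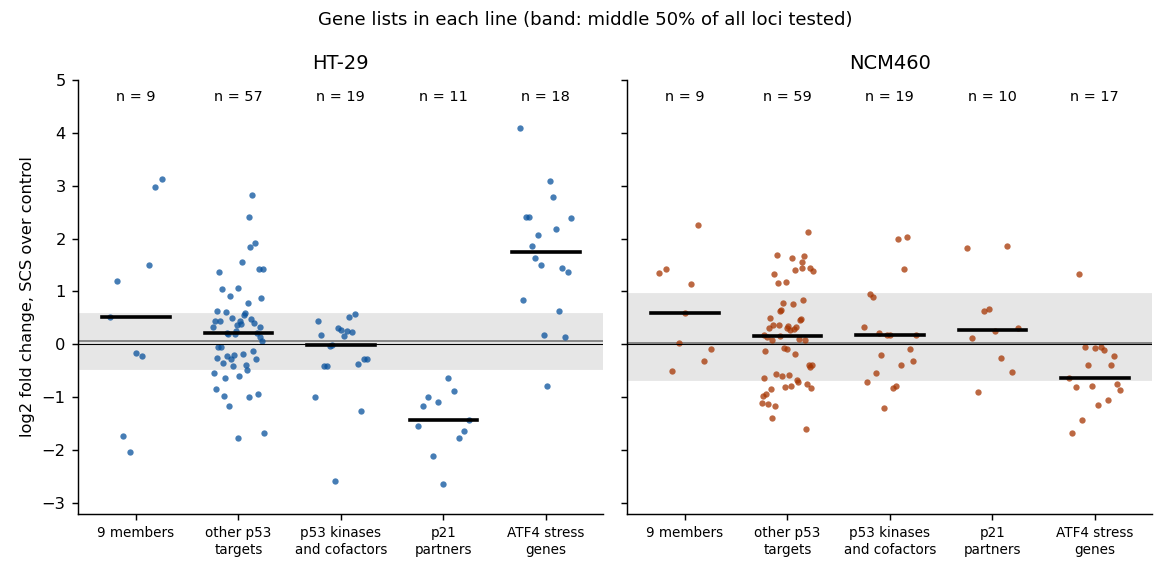
log2 fold change with SCS over the control in each line for the 9 members, the other p53 targets, kinases and cofactors that act on p53, the partners of p21 and the ATF4 stress genes, with 1 point per gene compared, a black line at each median and a grey band between the quartiles of all loci compared. In HT-29 the medians were 0.51, 0.22, -0.01, -1.43 and 1.75, and in NCM460 0.59, 0.17, 0.17, 0.28 and -0.64.

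The loci whose pattern over the 4 libraries was nearest to that of CDKN1A, by Euclidean distance of centred log2 CPM among 7532 loci at a mean of at least 10 CPM, were C6orf223 (distance 0.667), DDIT4 (0.698) and GAS6 (0.798). DDIT4, an inhibitor of mTORC1 signalling that is also on the ATF4 list, had 22 and 242 fragments in HT-29 and 134 and 119 in NCM460. C6orf223 had 2 and 38 in HT-29 and 21 in each NCM460 library, and GAS6, a ligand of TAM receptors, 2 and 41, then 17 and 21. Nearest to GDF15 were CREB3L2 (0.597), a membrane-bound transcription factor, OPLAH (0.697), an enzyme of glutathione turnover, and ITPKA (0.726), an inositol phosphate kinase. GDF15 itself was the 36th nearest locus to CDKN1A, at a distance of 1.64. With 4 libraries these distances describe the pattern and carry no test.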

How the data were processed

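RNA-seq libraries of HT-29 and NCM460 cells, 1 per condition and 4 in all, were grouped by the submitters' labels. The study names TRIzol, paired-end Illumina sequencing, read filtering and Cuffdiff. The submitters' processing notes name bcl2fastq 2.17.1.14, cutadapt 1.9.1, Bowtie2 and HTSeq 0.6.1 with build hg19, but the coordinates of the table are those of GRCh38, on which 93.1% of named genes have the start and end of GENCODE release 29. Strandedness is not given in the sources used here. The deposited count columns hold not whole counts, as the design had assumed, but a signal of fragments that the authors divided by a size factor per library. Once each value was divided by what 1 fragment adds in its library, 99.9% to 100% of values were whole (tolerance 0.1). The authors also deposited FPKM, a measure of fragments per transcript length and library size. Its ratios of SCS to control differed from the fragment ratios by more than 1 constant factor per line. In NCM460 the fragment and FPKM ratios were 2.65 and 0.490 for MDM2, and 0.946 and 0.882 for CDKN1A. FPKM is thus not these fragments rescaled by fixed lengths and library sizes, and how it was made was not tested. Rows without a gene name (0.00581% to 0.0352% of fragments) were left out, and neighbouring genes with identical values were merged into 18800 loci, 1733 of them of more than 1 gene.

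Fragments were scaled by TMM (edgeR 4.0.16) over all 4 libraries, with a prior count of 2 for log2 fold changes. A locus was compared within a line when its 2 libraries averaged 1 CPM or more. Counting intervals (95%) come from exact Clopper-Pearson limits on the fraction of a locus's fragments found with SCS (scipy 1.17.1), and fold ratios are of CPM without the prior count. GC trends are lowess fits with a span of 0.3 (statsmodels 0.14.6). A count of 3 fragments, the floor, is 1.23 to 3.79 CPM. With 1 library per condition the count tests of edgeR and DESeq2 1.42.0 could not be fitted within a line. The method was tested on simulated data that held counting error alone, the same error that the intervals cover. That test therefore says nothing of variation between cultures or of the GC trend. The members and all lists were chosen with earlier results of these data known. Every member is named, with the highest and lowest gene of each list among those that averaged 5 CPM or more, every CDK inhibitor, sestrin, reductase and BTG or TOB gene, and the 3 loci nearest to CDKN1A and GDF15. The transcript of p53 itself is not reported here.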

Additional observations from a re-analysis of the deposited data

Results flagged for a closer look

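GDF15 was marked because its change went in opposite directions in the 2 lines, each with a counting interval that excluded 0. Its log2 fold change with SCS was 2.98 in HT-29 and -0.31 in NCM460. With 1 library per condition the difference was not tested. In NCM460 the value was under the fold that is called, and it was above 0 in 2 of 10 alternatives. It was 0.36 (0.14 to 0.58) with the GC trend subtracted and 0.37 (0.16 to 0.59) with total counts only, so its direction depends on the processing.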

How the results depend on the processing

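No paired analysis was possible within a line because each condition has 1 library. CDKN1A, GDF15, DDB2, BTG2 and MDM4 kept their calls in HT-29 under all 10 alternatives run (CDKN1A from 2.95 to 3.40, GDF15 from 2.76 to 3.25, DDB2 from -2.30 to -1.57 on the log2 scale), and the difference between the lines stayed above 2.6 for both CDKN1A and GDF15. MDM2 in NCM460 reversed with the FPKM ratio, to -1.02 and -0.99 at pseudocounts of 0.1 and 1. CDKN1A in NCM460 was called higher with total counts only, at 0.60, as was ZMAT3, and ZMAT3 also with nuclear totals and at equal nuclear depth. The CDKN1A value in NCM460 kept its sign in 5 of 10 alternatives, from -0.22 to 0.60, so its direction depends on the processing. Members called higher in NCM460 were 5 with total counts only (32.4% of all loci), 0 with the GC trend subtracted (5.28%) and 1 with FPKM at a pseudocount of 1 (7.4%), and 1 was called lower with FPKM at either pseudocount (24.3% and 19.5%). With total counts only, which moved the median of all loci by 0.24 in HT-29 and 0.53 in NCM460, the other p53 targets had medians of 0.47 and 0.78, 23 were called higher in each line (24.7% and 32.4% of all loci) and 0 lower in NCM460 (2.15%). With FPKM their NCM460 median was -0.27 and -0.23, 11 were called lower in HT-29 at either pseudocount (23.3% and 18.7% of all loci), and in NCM460 5 and 4 were called higher (13.6% and 7.4%) and 16 and 14 lower (24.3% and 19.5%). In NCM460, 4 were called lower with nuclear totals or at equal nuclear depth (9.59% and 8.79% of all loci), and 5 were called higher and 2 lower with the GC trend subtracted. At a log2 fold change over 1 in place of a fold of 1.5, 3 were called lower in each line (8.97% and 8.05%). The cause of these moves was not tested. Leaving out the genes shared with the ATF4 list, ATF3 and SESN2, was chosen after seeing the data. Only SESN2 of these was called, so the other p53 targets called higher in HT-29 could only go from 12 to 11, beside 16.7% of all loci. That count is thus no test of a part of ATF4 in the other targets. An edgeR quasi-likelihood model of 1 change shared by both lines, also chosen after seeing the data, had 1 residual degree of freedom, called 9 of 13040 loci at an adjusted p under 0.05, and is no test of the members. Depth limits SESN1, which had at most 7 fragments in a library, and RRM2B in the NCM460 control.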

Other observations

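Kinases, ligases and cofactors that act on p53 were compared as a list of 19 loci in each line. In HT-29, 0 were called higher and 3 lower, beside 16.7% and 14.8% of all loci, with a median log2 fold change of -0.01. CHEK2, a kinase that phosphorylates p53 after DNA breaks, was the lowest at a mean of at least 5 CPM, with 22 and 9 fragments and -1.26 (-2.83 to -0.35), and ATM, the kinase upstream of it, the highest, with 117 and 206 fragments and 0.57 (0.25 to 0.92), not called. PPM1D, a phosphatase and p53 target that turns p53 signalling off, was also called lower in HT-29, from 28 to 15 fragments (-2.14 to -0.18 on the log2 scale). The third was TP73, a p53 relative, with 18 fragments in the control and 1 with SCS, a counting interval of -9.78 to -1.74 on the log2 scale. PPM1D and TP73 were chosen after their values were seen. In NCM460, 4 were called higher and 3 lower, beside 15.4% and 13.8% of all loci, and 1 and 4 with the GC trend subtracted, beside 5.28% and 5.95%. ATR, the kinase that answers stalled replication, was the highest there, at 2.03 (0.76 to 4.25). With the trend subtracted ATR was at 0.79 (-0.49 to 3.01), not called. TP73 was the lowest in NCM460, at -1.19 (-2.44 to -0.19) from 21 and 12 fragments.

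The genes that work with DDB2 and GDF15 were compared too. Of 8 genes of UV damage recognition, 1 (12.5%) was called lower in HT-29, DDB2, beside 14.8% of all loci. The 1 called higher, beside 16.7% of all loci, was CUL4B, a scaffold of the same ubiquitin ligase (0.61, 0.22 to 1.05). That call was lost with the GC trend subtracted (0.37). DDB1, the partner subunit of DDB2, was at -0.15 (-0.33 to 0.04) in HT-29. In NCM460 CUL4B was the highest, at 1.96 (0.94 to 3.51), and at 0.72 with the GC trend subtracted, where it was not called. DDB1 was the lowest in NCM460, at -0.59 (-0.82 to -0.37). Of the proteases and receptor parts of GDF15, FURIN was at 0.03 (-0.32 to 0.38) in HT-29, where PCSK6 fell by 1.47 (interval -2.20 to -0.95). RET, the signalling part of the GDF15 receptor, was chosen after its values were seen and was called lower in HT-29, at -1.08 (-2.27 to -0.26), from 28 to 14 fragments. In NCM460 PCSK6 was at -1.26 (-3.37 to 0.21) and RET at 0.10 (-0.94 to 1.20).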
